A study of Bombyx mori with 12 samples.

Results

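A group of 39 unnamed silkworm genes had ovary RNA levels that separated pupal stage P4 from stage P2 without overlap, 11 of them higher and 28 of them lower at P4. They were taken from 13524 gene models (identifiers starting with BGIBMGA) that carry neither a name nor a product description, among 15745 listed genes in all. A gene was a member if all 6 P4 samples lay above all 6 P2 samples, or all below, and if the ratio of the P4 mean plus 1 to the P2 mean plus 1 was at least 4 or at most 0.25. Members were thus chosen on the difference between the stages, which is given here as a description with no test. The genes are called rising and falling after the direction that the rule required.

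The samples are ovaries of female Bombyx mori pupae from animals labelled WT and TBH at P2 and P4, with 3 samples in each of the 4 groups. By its title the study deals with hyperproteinemia, an excess of protein in the blood, in silkworms with a genetic basis for it. The meaning of TBH, its alleles, the strain behind either line and the pupal age in days were not found in the labels. The labels speak of 5 dissected female pupae and n = 3, without saying whether a sample pools pupae, so errors describe the spread between these samples, which may be technical.

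During the pupal stage the silkworm ovary grows into long ovarioles, strings of follicles in which an oocyte and its nurse cells are wrapped in follicle cells. Oocytes first enlarge, then take up yolk proteins from the hemolymph, and the follicle cells later secrete the vitelline membrane and the chorion of the eggshell. A transcript that switches between nearby pupal stages can therefore belong to the follicle, to the germ line or to the other tissues dissected with the ovary, such as sheath muscle, trachea, fat body and hemocytes.

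The listed values are normalized expression values whose unit is not named, with 2 decimals, so the read depth behind them is unknown and they carry no counting interval. Because it is not known whether they are per transcript length, ranks and shares below are those of the listed values. They summed to between 468559 and 664134 in a sample, and 6399 to 7772 genes were above 0. WT P2 replicate 2 had the highest sum and the fewest genes above 0, and WT P2 replicate 1 had the most genes above 0. TBH P4 replicate 3 had the lowest sum of the P4 samples (500449) and the most genes above 0 among them (7485). For 432 genes some sample stood at 0 while another exceeded 20, a count that includes genes differing between the stages, such as BGIBMGA012410. Whether a 0 is an absent transcript or a failed estimate is not known. Zeros are therefore reported as listed, and no fold change is read from a group whose 3 samples are all at 0. The rule itself adds 1 to each mean and so gives a ratio for every gene.

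The 11 rising genes made up 0.0813% of the 13524 unnamed gene models, and the 28 falling genes 0.207%. Without regard to the ratio, the stages were separate in 37 of the 10171 unnamed models above 0 in any sample with P4 higher (0.364%), and in 154 with P4 lower (1.51%). Among the 1099 gene models with a name or product, 2 met the rule in the rising direction (0.182%) and 23 in the falling direction (2.09%). Over all 14623 gene models, named and unnamed, 13 were rising (0.0889%) and 51 falling (0.349%). All 39 genes passed the filter used for the tests below, under which 3 or more samples had to reach a value of 1. Of the rising genes, 3 did so only through their P4 values, and of the falling genes, 13 did so only through their P2 values. Over all 5235 genes that passed the filter, the median log2 difference of P4 from P2 was -0.30. The rule was applied to the listed values without correction for this shift.

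The rising set held little of the listed signal at P2 and several percent of it at P4, and a single gene carried this difference. Summed over the 11 genes, the set took 0.284% ± 0.167 (SD, n = 3) of the listed values in WT and 0.194% ± 0.036 in TBH at P2. At P4 it took 9.24% ± 2.65 in WT and 8.51% ± 2.55 in TBH. BGIBMGA004157 alone held 99.3% of the set's summed mean value at P4. Without it, the other 10 genes took 0.0051% to 0.0127% of the listed values at P2 and 0.0393% to 0.0807% at P4. The 28 falling genes took 0.347% to 0.560% at P2 and 0.0109% to 0.0285% at P4.

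**Figure D1:**
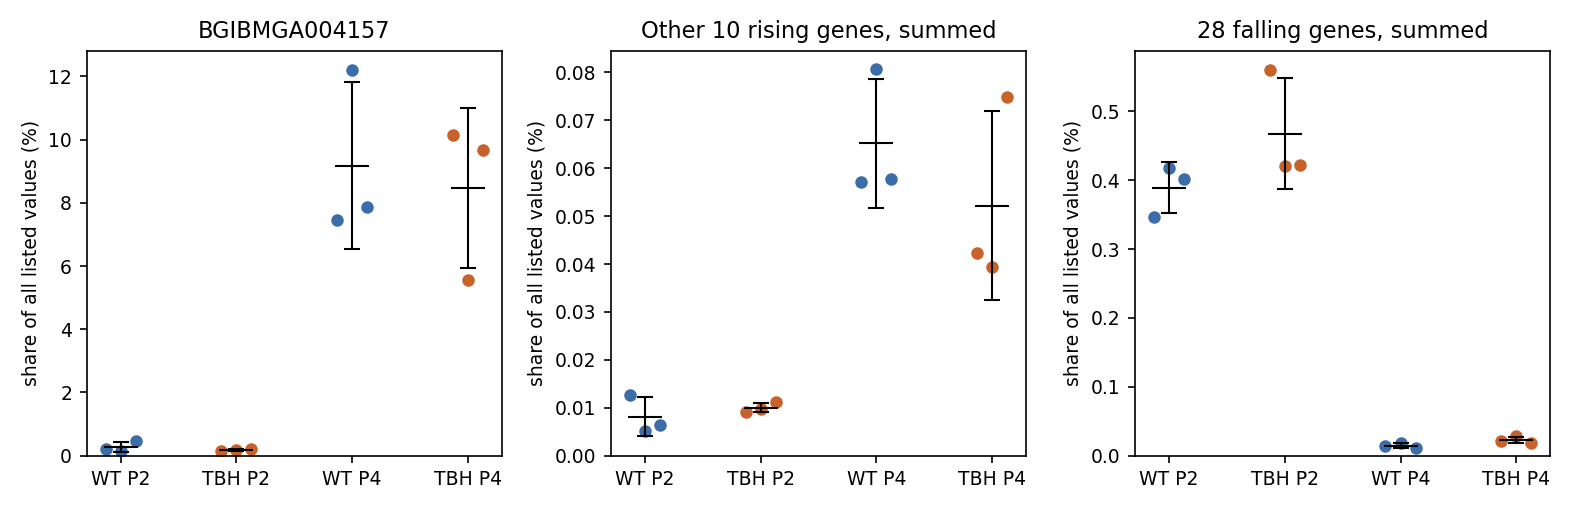
Share of all listed values in each sample (dots) taken by BGIBMGA004157, by the other 10 rising genes summed and by the 28 falling genes summed, with the mean and SD of the 3 samples in black and a separate vertical axis starting at 0 in each panel. BGIBMGA004157 lies at 5.54% or more in every P4 sample and at 0.468% or less in every P2 sample.

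BGIBMGA004157 was listed at 974, 1052 and 2193 in the WT samples and at 796, 1058 and 1154.5 in the TBH samples at P2. At P4 it was listed at 41444, 74091 and 46708 in WT and at 58466, 31456 and 48414 in TBH. The lowest P4 sample, TBH replicate 2, thus lay far above the highest P2 sample, WT replicate 3, and the lines overlapped at both stages. The ratio of the P4 mean to the P2 mean was 38.5 in WT and 46.0 in TBH. In bulk tissue, more cells that hold a transcript and more transcript per cell cannot be told apart.

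In the order of listed values, BGIBMGA004157 moved from ranks 54 to 114 in the P2 samples to rank 1 in all 6 P4 samples. Its mean at P4, 50097, stood above that of the next gene, a 40S ribosomal protein S3a (BGIBMGA011416), at 20589. Its own gain, 48892, exceeded the gain in the summed mean of all listed genes between the stages, 25454. Without this gene the summed mean was 540185 at P2 and 516746 at P4. Of the increases in mean value summed over all listed genes, BGIBMGA004157 accounted for 44.7%. Unnamed gene models held 41.4% of the listed values on average at P2 and 43.1% at P4, and 41.2% and 34.2% when BGIBMGA004157 was not counted as one of them.

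The genes whose profile over the 12 samples lay nearest to that of BGIBMGA004157, by Pearson's r of log2(value + 1), included a known eggshell gene. Among genes with a name or product they were VMP23 (BGIBMGA006755), a vitelline membrane protein, at r = 0.99, the putative cuticle protein gene BMORCPR26 (BGIBMGA000343) at 0.93 and the muscle actin gene A1 (BGIBMGA013945) at 0.88. Among unnamed genes they were BGIBMGA011424 at 0.94, BGIBMGA010945 at 0.94 and BGIBMGA014227 at 0.93, the first of them and the second being members too. All points share the split into stages, so these values describe genes that also differed between P2 and P4 and carry no test.

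Next in listed value among the rising genes at P4 was BGIBMGA011712, at 56.2, 144 and 62.2 in WT and 115, 86.1 and 122 in TBH. At P2 it was at 26.0, 14.8 and 15.6 in WT and 30.8, 24.5 and 26.3 in TBH, so the stages were separate but the ratio of means plus 1, 4.11, was the lowest of the rising set. It left the set when values were scaled to equal totals, and also without any 1 of WT P2 replicate 2 or 3, WT P4 replicate 2 and TBH P4 replicate 1 or 3. Its identifier is next to that of the cuticle protein gene CPG43 (BGIBMGA011713), which went the other way, from a mean of 2705 at P2 to 7.90 at P4. The order of identifiers is not taken here as order along a chromosome.

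BGIBMGA014404 showed the widest gap between lines within the rising set. It was listed at 117, 93.2 and 112 in WT at P4 and at 22.1, 29.1 and 42.6 in TBH. Its P2 values were 0, 0 and 0 in WT and 0, 0 and 21.5 in TBH. TBH P2 replicate 3 therefore nearly reached the lowest TBH P4 sample, while WT had a clear gap. With equal totals it no longer met the rule.

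BGIBMGA006757 was at 30.2, 57.2 and 40.4 in WT and 43.5, 32.0 and 90.6 in TBH at P4. Its P2 values were 16.4, 8.48 and 7.76 in WT and 9.16, 6.44 and 4.09 in TBH. The lines overlapped at both stages. Its identifier lies within 3 numbers of VMP23, which was at 8.99 to 13.4 in WT and 3.16 to 6.53 in TBH at P2, and at 534 to 1210 in WT and 401 to 504 in TBH at P4. It was the only one of the 11 rising genes within 3 identifier numbers of another rising gene, named or not.

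A lower level in TBH than in every WT sample at P4 was also seen in BGIBMGA014162 and BGIBMGA006017. The first was at 46.0, 47.8 and 51.2 in WT and 14.7, 37.0 and 21.7 in TBH at P4, after 9.32, 4.36 and 0.27 in WT and 3.07, 8.48 and 0 in TBH at P2. BGIBMGA006017 was at 19.0, 39.4 and 22.7 in WT and 7.03, 17.9 and 9.16 in TBH at P4, and between 2.59 and 4.53 in all P2 samples. It was near the threshold, with a ratio of 4.60, and left the set without WT P4 replicate 2. Over the 11 rising genes, 3 had all TBH samples below all WT samples at P4 and 0 above, where 6.72% and 14% of all 5235 tested genes did so. P4 is the stage at which the rule required these genes to be high. BGIBMGA014404, among the 3, passed the filter only through its P4 values, so the count is not read as a lean of the set.

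BGIBMGA006885 and BGIBMGA011424 were listed at 0 in all 6 P2 samples. At P4 BGIBMGA006885 was at 11.1, 16.3 and 12.4 in WT and at 6.61, 1.24 and 19.3 in TBH. BGIBMGA011424 was at 3.83, 3.09 and 5.02 in WT and at 6.71, 1.75 and 9.05 in TBH. In both genes TBH replicate 2 was the lowest P4 sample and TBH replicate 3 the highest. The remaining rising genes were low at P2 and moderate at P4. BGIBMGA000562 went from 0.83 to 7.71 at P2 to 9.17 to 56.9 at P4, BGIBMGA010945 from 0.49 to 1.52 to 5.36 to 17.9, and BGIBMGA010598 from 0.24 to 2.29 to 3.55 to 16.1.

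The highest and lowest P4 values of the rising genes fell repeatedly on the same samples. TBH P4 replicate 2 was the lowest P4 sample for 6 of the 11 genes, WT P4 replicate 2 the highest for 5, and TBH P4 replicate 3 the highest for 4. Nearest outside the ratio threshold were BGIBMGA003719 at 2.92 and BGIBMGA014227 at 2.90, so no unnamed gene with separate stages lay between a ratio of 2.92 and 4.11.

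**Figure D2:**
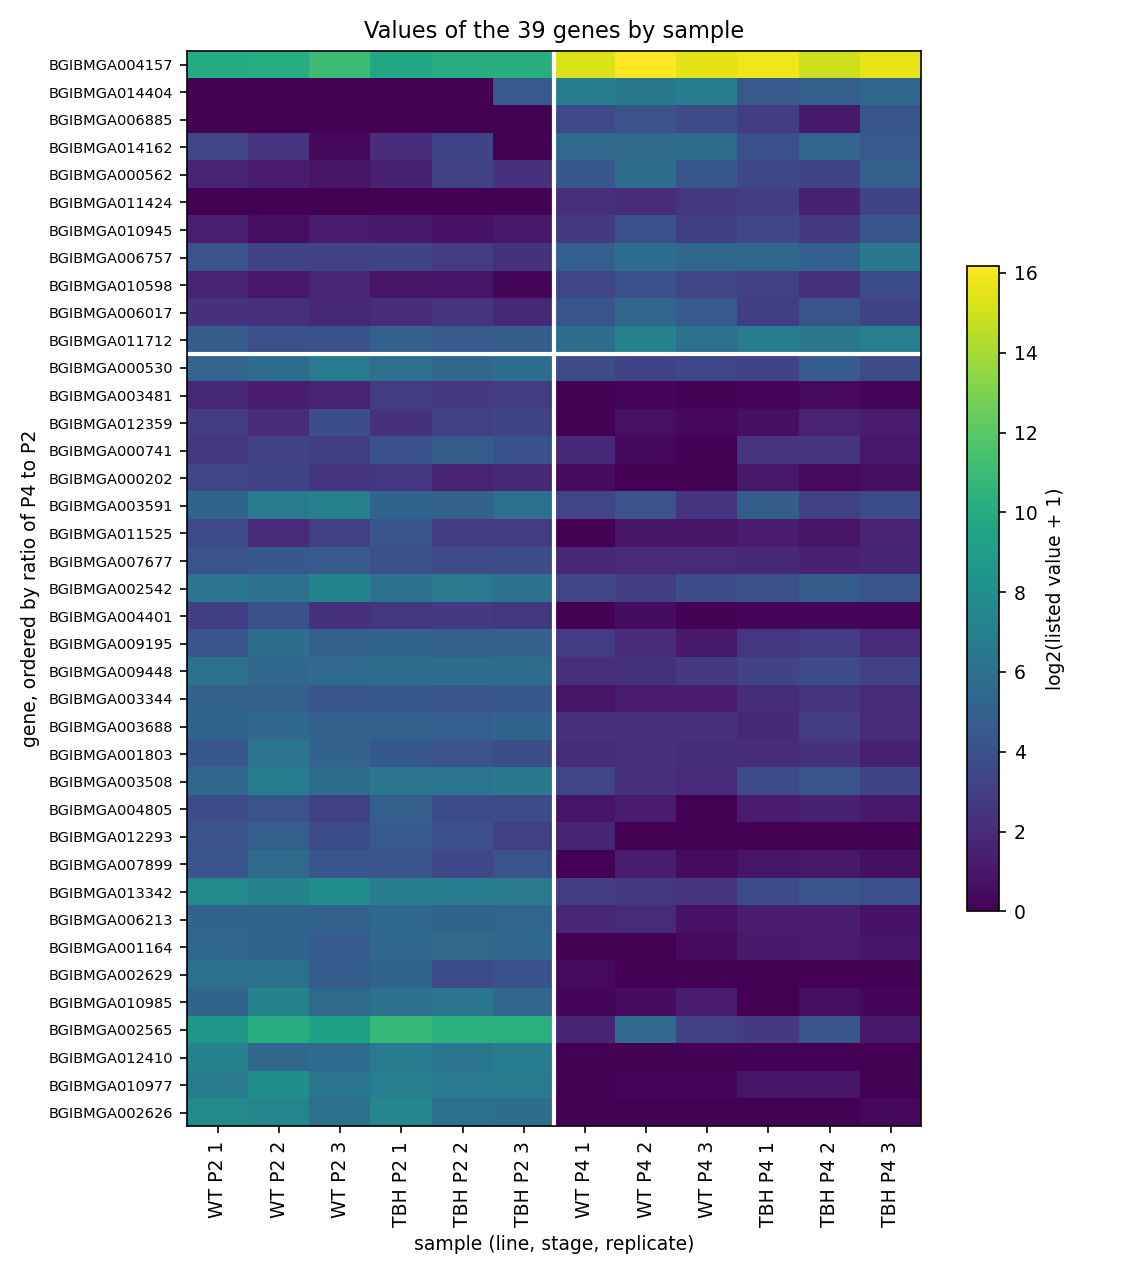
Listed values of the 39 genes as log2(value + 1) in the 12 samples (columns: line, stage, replicate), with genes in rows from the highest to the lowest ratio of P4 to P2 and white lines between stages and between the 11 rising and 28 falling genes. BGIBMGA004157 in the top row stands apart in level, and BGIBMGA012410 near the bottom is at 0 in all 6 P4 samples.

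The falling set was larger in number and spread its signal over more genes. BGIBMGA002565 was its most abundant member by listed value, with 46.5% of the set's summed mean at P2. It was at 371, 1149 and 617 in WT and at 1832, 1274 and 1251 in TBH at P2, so every TBH sample lay above every WT sample. At P4 it was at 2.15, 44.5 and 8.14 in WT and at 5.58, 17.0 and 1.18 in TBH, where the lines overlapped. The identifiers next to it belong to the cuticle protein genes CPG32 (BGIBMGA002566) and CPG33 (BGIBMGA002567), which were low at both stages, with means at P2 of 2.01 and 0.34 and at P4 of 0.18 and 0.13.

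Several falling genes were at or close to 0 throughout P4. BGIBMGA012410 was at 144, 42.3 and 50.4 in WT and 95.4, 75.5 and 112 in TBH at P2 and was listed at 0 in all 6 P4 samples. BGIBMGA002626 was at 202, 174 and 62.5 in WT and 180, 58.1 and 55.5 in TBH at P2, and at 0 in 5 P4 samples with the last, TBH replicate 3, at 0.29. BGIBMGA002629 was at 58.3, 61.4 and 25.7 in WT and 36.6, 12.2 and 16.04 in TBH at P2, and at 0 in all P4 samples except WT replicate 1, at 0.32. The identifiers of BGIBMGA002626 and BGIBMGA002629 lie 3 numbers apart, the only such pair within the falling set, and in both WT replicate 3 was the lowest WT sample at P2.

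BGIBMGA010977 was at 105, 252 and 77.7 in WT and at 118, 98.4 and 101 in TBH at P2, and at 0 to 0.87 at P4. BGIBMGA010985 was at 34.4, 153 and 47.4 in WT and at 66.5, 78.1 and 40.1 in TBH at P2, and at 0 to 1.33 at P4. In both of these genes WT P2 replicate 2 was far above the other samples, and the remaining P2 samples of both lines overlapped. BGIBMGA001164 was at 25.3 to 47.0 at P2, with P4 values of 0, 0 and 0.34 in WT and 1.28, 1.5 and 0.86 in TBH. BGIBMGA012293 was at 7.40 to 29.3 at P2 and at 0 in all P4 samples except WT replicate 1, at 2.17.

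In other falling genes a clear remainder was listed at P4. BGIBMGA002542 was at 79.7, 66.5 and 153 in WT and 67.9, 99.7 and 64.7 in TBH at P2, and at 9.47, 6.59 and 12.45 in WT and 15.0, 26.0 and 17.5 in TBH at P4. BGIBMGA003508 was at 42.9, 110 and 54.6 in WT and 80.1, 77.9 and 87.8 in TBH at P2, and at 2.90 to 9.89 in WT and 8.86 to 18.3 in TBH at P4. The lines were thus separate at P4 in BGIBMGA002542, with TBH higher, and overlapped in BGIBMGA003508. BGIBMGA009448 stood at 40.1 to 66.8 at P2, then at 3.63, 4.28 and 5.34 in WT and at 8.93, 11.96 and 7.79 in TBH. BGIBMGA003344 stood at 19.1 to 32.3 at P2, then at 0.82, 1.45 and 1.43 in WT and at 3.28, 4.41 and 3.10 in TBH. TBH samples at P4 lay above all WT samples in these genes as well.

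Further falling genes are given here by ranges over both lines or by means, and those with separate lines are named further below. BGIBMGA003591 went from 33.5 to 128 at P2 to 4.72 to 26.5 at P4, BGIBMGA009195 from 18.5 to 56.8 to 1.19 to 6.39, and BGIBMGA001803 from 14.0 to 77.8 to 1.64 to 4.22. BGIBMGA006213 went from 32.0 to 42.3 to 0.70 to 3.02, BGIBMGA003688 from 27.4 to 43.3 to 2.61 to 6.37, and BGIBMGA007677 from 12.7 to 23.1 to 1.80 to 2.92. The P2 ranges of BGIBMGA006213, BGIBMGA003688 and BGIBMGA007677 were narrower than those of the genes named before them. BGIBMGA007899 went from 10.1 to 47.3 to at most 1.34, BGIBMGA004805 from 8.21 to 28.9 to at most 1.75, and BGIBMGA000741 from 4.96 to 26.6 to at most 4.51. The falling genes with a P2 mean under 10 were 5 in number: BGIBMGA011525, BGIBMGA012359, BGIBMGA004401, BGIBMGA000202 and BGIBMGA003481, with P2 means of 8.75, 7.14, 6.96, 5.40 and 4.05.

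At the edge of the falling set were BGIBMGA000530, at 37.8 to 95.9 at P2 and 8.33 to 25.0 at P4 (4.31 times lower as a ratio of means plus 1), and BGIBMGA003481 (4.33 times lower). Just outside were BGIBMGA004866 at 3.79 and BGIBMGA001176 at 3.78, so this threshold did not fall in a gap. With a pseudocount of 0.1 in place of 1 the falling set held 56 genes, all 28 among them, because low genes then reach a larger ratio. Applied to WT samples alone the rule called 36 genes rising and 73 falling, and in TBH samples alone 25 and 39. With fewer samples per stage, separation without overlap is easier to meet. These counts are therefore not compared with those over both lines, nor read as a difference between the lines.

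Named genes that met the same rule give the company in which these genes switched, as a description. The 2 named rising genes were VMP23 and BMORCPR26. The 5 falling ones with the highest mean at P2 were CPG43, the IGF-like peptide gene IGFLP (BGIBMGA012305), an insulin-like growth factor relative, a small heat shock protein gene (BGIBMGA005781), a chaperone, BMORCPH27 (BGIBMGA011714), annotated as neuropeptide-like 4A and as a cuticle protein, and the gene PP (BGIBMGA008221), annotated as promoting protein. Their means went from 2705 to 7.90, from 2548 to 214, from 458 to 61.6, from 427 to 0.85 and from 243 to 31.9. Together the 23 named falling genes took 0.974% to 2.31% of the listed values at P2 and 0.0375% to 0.0835% at P4, so the falling unnamed genes carried the smaller part of this signal.

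Markers of the ovary and of tissues that can come with it were read from names and products. Of 8 ovary genes so found, VMP23 was abundant at P4 and the vasa intronic protein VIG (BGIBMGA006704) had group means of 1749 to 2125. VIG was found only by the word vasa in its product and is not vasa itself. It held 99.1% of the sum of the list at P2 and 74.2% at P4, so that sum is not read as a level of the ovary. The germ line gene NANOSO was at 0 in all samples, and VMP25, VMP90 and the chorion protein gene 5H4 had group means under 0.21. The chorion transcription factor gene CBZ (BGIBMGA006415) had means of 8.79 in WT and 8.01 in TBH at P2, and 1.09 and 10.4 at P4. The chorion regulator C/EBP (BGIBMGA013687) had means of 3.24 and 0.77 at P2, and 3.34 and 0.76 at P4. Of 180 cuticle and trachea genes, 161 were above 0 in any sample, and their summed value was 5394 to 17142 in WT and 7939 to 8804 in TBH at P2, and 1879 to 4186 in WT and 1679 to 3070 in TBH at P4. Of this sum at P2, 92.1% came from the putative cuticle protein genes CPG43 and BGIBMGA005303, the latter named CPH43 but with CPH44 as its product. Without them the list summed to 354 to 1325 at P2 and 129 to 184 at P4, and 171 of the 180 genes had a P2 mean under 10. By the rule, 4 genes of the list were falling and 1 rising. The highest sum of the whole list, 17142, was WT P2 replicate 2, which was also the highest P2 sample for 10 of the 28 falling genes. Of 17 genes of the nervous system list 14 were above 0. Their sum was 630 to 1664 at P2 and 2.56 to 20.2 at P4. Nearly all of the P2 sum came from neuropeptide-like 4 genes, 1 of which, BMORCPH27, is also annotated as a cuticle protein. Among the other genes of the list the highest group mean was 7.73, for a synaptosomal-associated protein gene (BGIBMGA005176) in WT at P2.

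The fat body and hemolymph list (19 genes, all above 0 in any sample) summed to 149 to 331 at P2 and 95.9 to 242 at P4. A 30kDa protein gene (BGIBMGA004454) held 53.3% of this at P2 and 93.1% at P4. Without it the list summed to 98.8 to 227 in WT and 64.5 to 81.1 in TBH at P2, and to 6.09 to 17.1 and 6.85 to 12.4 at P4. By the rule, 3 genes of the list were falling, the 30 kDa lipoprotein genes LP, LP-C19 and LP-C12. The yolk precursor vitellogenin gene VG (BGIBMGA004585), which did not meet the rule, had means of 62.9 in WT and 4.21 in TBH at P2, and 5.03 and 2.93 at P4. In the muscle list (5 genes, 4 above 0, tropomyosin-1 at 0) the sum was 350 to 727 at P2, and 1473 to 2074 in WT and 721 to 1201 in TBH at P4. The genes A1 and MLC-2 (BGIBMGA002259), a myosin regulatory light chain, held 99.98% of this sum at P2 and 99.93% at P4. Without them the list summed to 0 to 0.8 at P2 and 0 to 1.69 at P4. In the hemocyte list hemocytin was at 0 and PRO-PO2 had group means of 23.7 to 53.4. The silk gland list (4 genes, all above 0 in any sample) summed to 162 to 372 at P2 and 190 to 401 at P4. Of this sum, 85.1% at P2 and 92.1% at P4 came from BCP (BGIBMGA011342), annotated as fibroinase. Without BCP and FMBP-1 (BGIBMGA002810), the list with the fibroin chain genes summed to 0.61 to 2.37 at P2 and 0 to 1.0 at P4. Of 51 listed cytosolic ribosomal protein genes, 48 were above 0. The cuticle, nervous system and muscle sums, and the fat body and hemolymph sum without BGIBMGA004454, moved between the stages along with the members. The cuticle, nervous system and muscle sums rested largely on the leading genes named above, so they are not read as the level of a tissue. The part of any list in the switch was not tested.

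The comparison of TBH with WT within a stage was not part of the rule and was tested in a limma fit of log2(value + 1) over all 5235 genes that passed the filter, with Benjamini-Hochberg adjustment over all of them. At P2, 0 of the 39 genes passed at an adjusted p of 0.05, and 78 of all tested genes did (1.49%). At an unadjusted p of 0.05, 6 of the 39 passed, all of them falling genes, beside 7.05% of all tested genes. At P4, 1 of the 39 passed, beside 1.93% of all tested genes, and 8 passed at the unadjusted level, beside 11.7%. In the test of whether the line difference itself differed between P2 and P4, 1 of the 39 passed, beside 0.287% of all tested genes, and 8 at the unadjusted level, beside 5.14%. The gene that passed was BGIBMGA013342 in both of the last comparisons. Some members could not pass in 1 stage, since BGIBMGA006885 and BGIBMGA011424 were at 0 in all P2 samples and BGIBMGA012410 in all P4 samples. Without the values of their high stage, 8 of the 11 rising and 15 of the 28 falling genes would have passed the filter. The shares of members that passed are therefore not read as a result about the set.

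BGIBMGA013342, a falling gene, was higher in WT than in TBH at P2 and higher in TBH than in WT at P4. At P2 it was at 213, 148 and 243 in WT and at 113, 113 and 101 in TBH. At P4 it was at 6.11, 5.16 and 4.62 in WT and at 12.7, 17.9 and 14.4 in TBH. The lines did not overlap at either stage, and their order was opposite. The group means were 201 ± 48.5 in WT and 109 ± 6.85 in TBH at P2 (SD, n = 3), and 5.30 ± 0.75 and 15.0 ± 2.66 at P4.

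In the limma fit the log2 difference of TBH from WT for BGIBMGA013342 was -0.85 ± 0.24 (SE) at P2 (adjusted p = 0.184) and 1.34 ± 0.24 at P4 (adjusted p = 0.014). The P4 value was 1.16 relative to the median of all tested genes, which was 0.18. The difference between the stages was 2.19 ± 0.34 (adjusted p = 0.022), or 2.00 relative to the median of 0.19. The call at P4 ended when any 1 of 3 P4 samples was left out (replicate 2 of either line, or WT replicate 3), with equal totals or quantile normalization, and on the 6 P4 samples alone, while the log2 difference stayed between 1.18 and 1.48 over 22 alternatives (adjusted p from 0.00057 to 0.077). The call of the difference between stages ended in 13 of 21 alternatives (log2 difference 2.04 to 2.42, adjusted p from 0.0038 to 0.10), among them those without WT P2 replicate 1 or 3, without any 1 TBH P2 or WT P4 sample, or without TBH P4 replicate 2.

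**Figure D3:**
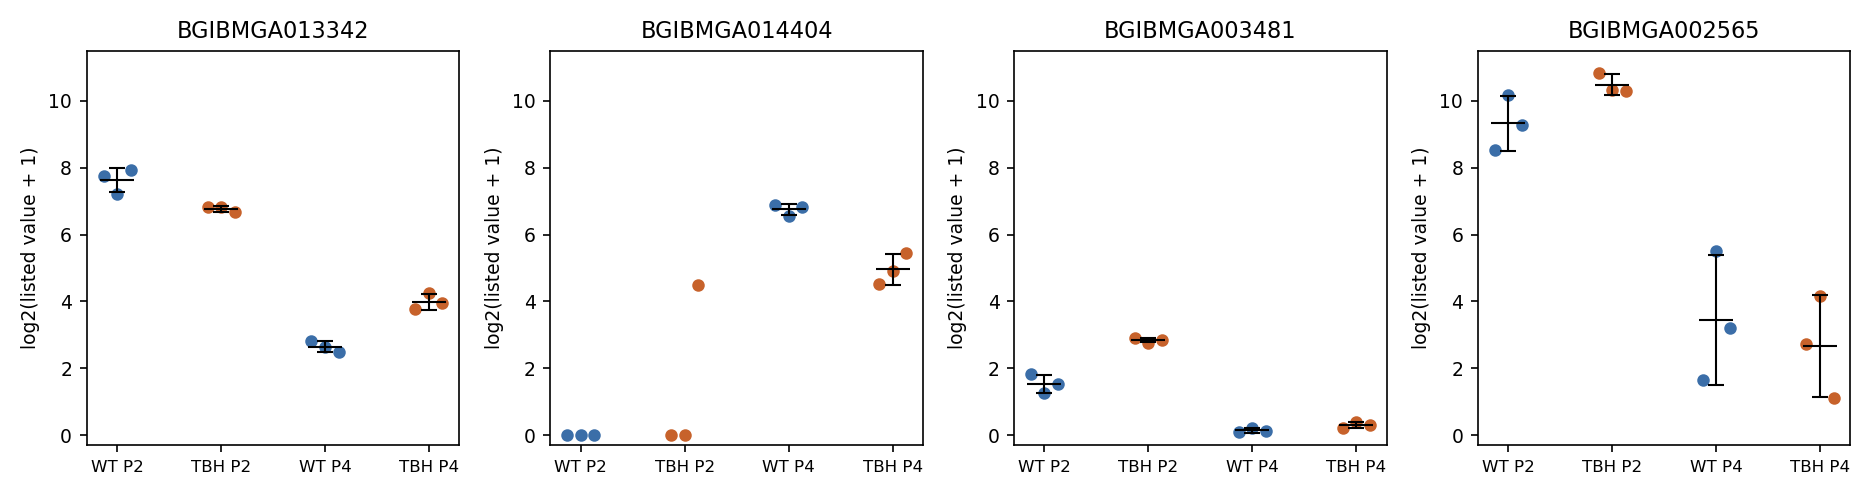
Values of 4 genes as log2(value + 1) in each sample (dots) by line and stage, with the mean and SD of 3 samples in black where no sample is at 0. For BGIBMGA013342 the WT samples lie above the TBH samples at P2 and below them at P4.

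For the most abundant members no line difference passed, and the errors leave room for one. BGIBMGA004157 had a log2 difference of TBH from WT of -0.40 ± 0.35 (SE) at P2 (limma adjusted p = 1.0) and -0.23 ± 0.35 at P4 (adjusted p = 0.909), the latter turning to 0.02 without WT P4 replicate 2 and without TBH P4 replicate 2. BGIBMGA002565 differed by 1.16 ± 0.91 at P2 in spite of the separation of the lines (adjusted p = 1.0), and by -0.78 ± 0.91 at P4 (adjusted p = 0.847), turning to 0.25 without WT P4 replicate 2.

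BGIBMGA014404 differed by -1.79 ± 0.94 at P4 (limma adjusted p = 0.544). Its limma adjusted p was 0.019 without TBH P2 replicate 3, the sample at 21.5 beside replicates at 0, and 0.030 when the 6 P4 samples were fitted alone. Leaving out that replicate left only zeros at P2, and the SE fell to 0.33 while the log2 difference stayed at -1.79. The gene passed the filter only through its P4 values, so these p-values are not read as a line difference. BGIBMGA003481 was at 2.52, 1.42 and 1.88 in WT and at 6.42, 5.82 and 6.23 in TBH at P2, and at 0.06 to 0.31 in all P4 samples. The lines were separate at P2, with a log2 difference of 1.30 ± 0.29 (limma adjusted p = 0.058). It passed with quantile normalization, without the trend and with sample weights, at adjusted p-values of 0.032, 0.019 and 0.045.

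At P4, all TBH samples were above all WT samples in 6 of the 28 falling genes and below in 0, beside 14% and 6.72% of all tested genes. These were BGIBMGA001164, BGIBMGA013342, BGIBMGA003344, BGIBMGA009448, BGIBMGA002542 and BGIBMGA011525. P4 is the stage at which the rule required these genes to be low, and 13 of the 28 passed the filter only through their P2 values, so part of these differences lies between values near 0 and the count is not read as a lean of the set. At P2 the median log2 difference over the 28 genes was -0.18, beside -0.01 over all tested genes, and the lines were separate in BGIBMGA002565, BGIBMGA006213, BGIBMGA000741 and BGIBMGA003481 with TBH higher and in BGIBMGA013342 and BGIBMGA007677 with TBH lower. Over all tested genes, 4.76% were separate at P2 with TBH higher and 4.16% with TBH lower.

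**Figure D4:**
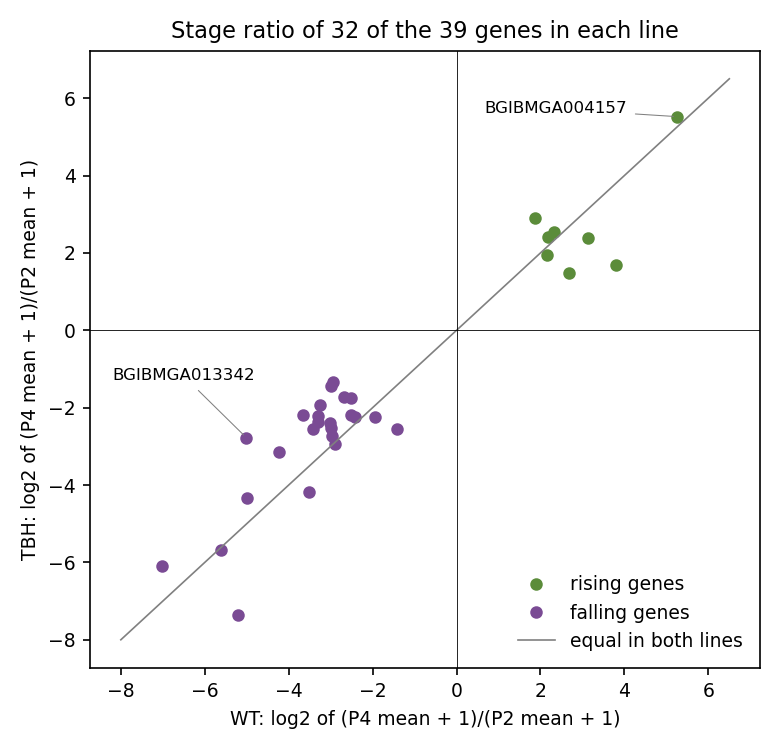
Ratio of P4 to P2, as log2 of the means plus 1, in WT (horizontal) and TBH (vertical), for the 8 rising and 24 falling genes with no group of 3 samples all at 0, with a grey line where both lines would be equal. The larger decrease was in WT for 18 of the 24 falling genes, and the larger increase in WT for 4 of the 8 rising genes. Over all 5235 tested genes, the limma line effect at P4 minus that at P2 was positive in 64.3%. A larger decrease in WT has that same direction. Part of the P4 values of the falling genes lies near 0, so these counts are not read as a lean of either set.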

How the data were processed

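Libraries of ovary RNA were run on a Novaseq platform, as the labels' protocols state. The deposited table holds a normalized expression signal for each of 12 samples, with no unit named, and 4 columns of group means by the authors that were not used. The submitters' processing notes name Cufflinks and DESeq2 without version or role. For aligner, counting, genome build and annotation: not given in the sources used here. Identifiers matched 0 entries of the RefSeq gene table, so no name, position or sequence was added.

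Samples were grouped by their titles. The members and lists were chosen with earlier results of these data known. Line differences were fitted in limma 3.58.1 (R 4.3.3) as log2(value + 1), with 1 mean per group over all 12 samples, eBayes with trend, for genes with at least 1 in at least 3 samples. The fit was also run on simulated data with normal noise and known steps in TBH at P4. That simulation gave each gene the same base mean in all groups and changed only genes of higher value. It therefore does not cover members whose values were very low in a group. Named were the 8 most abundant and the 5 most changed members in each direction, called members, those nearest the threshold and the nearest profiles to BGIBMGA004157. The other members were given as an account of the set, and those singled out for a line difference without a call were chosen after their values were seen. Marker sums without their leading genes were added after seeing the data. Alternatives covered scaling, filters, pseudocount, weights, the replicate number as a block and samples left out.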

Additional observations from a re-analysis of the deposited data

Results flagged for a closer look

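BGIBMGA013342 was the only one of the 39 genes whose line difference differed between the stages in the test of that difference, by 2.19 on the log2 scale from P2 to P4 (limma adjusted p = 0.022). The range over its alternatives was 2.04 to 2.42, and the adjusted p was above 0.05 in 13 of 21 of them, reaching 0.10. Groups of 3 are too small for a test of single outlying samples.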

How the results depend on the processing

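The rule kept 9 of the 11 rising and 23 of the 28 falling genes whichever 1 sample was left out, with totals of 9 to 13 rising and 28 to 32 falling. Without WT P2 replicate 2 and TBH P4 replicate 3 together there were 13 and 41, and without WT P2 replicates 1 and 2 together 14 and 30. Equal totals gave 9 and 29, and quantile normalization 12 and 21. A pseudocount of 0.1 gave 12 and 56, a ratio of at least 2 gave 20 and 88, and a ratio of at least 8 gave 3 and 11. WT samples alone gave 36 and 73, and TBH samples alone 25 and 39, under the easier condition of fewer samples per stage. The mean share of the rising set at P4 stayed between 8.19% and 9.53% with 1 sample left out, and that of the falling set at P2 between 0.402% and 0.444%, an alternative chosen after seeing the data; for BGIBMGA004157 it was 8.14% to 9.47%.

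Of the 39 genes, those passing at P2 were 1 with quantile normalization, without the trend, with sample weights, and without WT P2 replicate 2 and TBH P4 replicate 3 together, and 0 with any 1 sample left out. At P4 they were 0 with quantile normalization and with equal totals, 2 with a pseudocount of 0.1 and 7 with sample weights, and 0 to 2 with 1 sample left out. For the difference between stages they were 0 with quantile normalization, equal totals or no filter, and 0 to 1 with 1 sample left out. No pairing by replicate number was seen, since 1 of 18 same-numbered pairs had deviations correlated above 0.1 (range -0.18 to 0.24). A differently numbered pair, WT P2 replicate 1 and TBH P4 replicate 3, reached 0.36. With 3 samples in a group this check cannot exclude a pairing. With the replicate block, 0 passed at P2, at P4 and for the difference between stages. Directions of uncalled values turned for BGIBMGA004157, at P4 to 0.0214 without WT P4 replicate 2 and 0.0235 without TBH P4 replicate 2 (lowest -0.42 over all alternatives), and for its difference between stages to -0.20 without WT P2 replicate 3 and -0.02 without TBH P4 replicate 1 (highest 0.43 with 1 sample left out, and 0.57 with sample weights). For BGIBMGA002565 at P4 it turned to 0.25 without WT P4 replicate 2 (lowest -1.68 over all alternatives). The cause of these changes was not tested. Read depth is unknown, so low values near 0 cannot be given a counting error.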
